A study of Mus musculus with 9 samples.

Results

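The genes described here regulate how many mitochondria a cell builds and how it senses its energy supply. They were taken by name and made up 10 of the 49315 gene IDs in the count table. The set held the PGC-1 coactivators *Ppargc1a* and *Ppargc1b*, the transcription factors *Nrf1*, *Gabpa* and *Esrra*, the MYC factors *Myc* and *Mycn*, the catalytic subunits *Prkaa1* and *Prkaa2* of AMP-activated protein kinase (AMPK), and *Stk11*, which encodes the kinase LKB1. Each matched 1 gene ID, and the names were picked with earlier results of these data known.

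SB28 is a mouse glioblastoma line of C57BL6 origin that expresses green fluorescent protein, and the study asked how SB28 cells that had taken up astrocyte mitochondria differed in gene expression from those that had not. SB28 cells and primary neonatal astrocytes were kept together for 2 days in DMEM F12 with 2% FBS, 5% N2 and 20 ng/ml each of EGF and FGF, with no other treatment, and were then sorted. These amounts of FBS and N2 are those of the sample labels and differ from those in the methods. The astrocytes came from C57BL6 (mito::mKate2) mice, in which a transgene under the broadly active CAG promoter places the red fluorescent protein mKate2 in mitochondria. The methods describe such glial cultures as grown from the subventricular zone of newborn mice. The 3 groups were astrocytes, mKate2- SB28 cells without red mitochondria and mKate2+ SB28 cells with them, each with 3 libraries. The methods describe all 3 populations as sorted from 3 separate co-cultures taken as biological replicates, and whether libraries with the same number came from the same one is not stated. All groups had shared a dish with the other cell type, and no SB28 cells grown alone were analysed here. Total counts were 24454561 to 35135662 per astrocyte library, 27187348 to 35891589 per mKate2- library and 34175016 to 39287841 per mKate2+ library.

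PGC-1α and PGC-1β are coactivators that bind transcription factors such as NRF1, the GABP complex and ERRα, and these in turn switch on nuclear genes for respiratory chain subunits and for the machinery that copies and transcribes mitochondrial DNA. MYC factors drive growth, ribosome production and mitochondrial biogenesis, and tumors often carry raised levels of them. AMPK is a kinase of 3 subunits, α, β and γ, that is activated when ATP falls. LKB1, bound to the pseudokinase STRAD and the scaffold MO25, phosphorylates its α subunit, and active AMPK restrains lipid synthesis and raises PGC-1α activity.

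One library stood apart. In mKate2+ replicate 2, long genes were lower and short genes higher than in the other 5 SB28 libraries (Spearman's rho of the difference with exonic length -0.41 over 13431 genes), against 0.08 to 0.26 for those 5 libraries. Each of those 5 was set against libraries that included mKate2+ replicate 2, so their rho is not independent of it. The Euclidean distance of mKate2+ replicate 2 to the other SB28 libraries was 66.0 to 73.3 on log2 CPM over 13450 genes, against 42.4 to 50.2 among those 5. The astrocyte libraries differed from each other in the same way, with a rho of -0.36 in replicate 1 and 0.35 in replicate 3. The regulators' calls and, apart from *Mycn*, their fold changes in mKate2+ cells, and the counts and medians of the gene lists, are therefore also given without replicate 2.

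The set holds 3 pairs of paralogs, so the coding sequences of GENCODE M21 (GRCm38) were compared to see how well reads can separate them. The longest run of identical bases was 35 between *Prkaa1* and *Prkaa2*, 12 between *Myc* and *Mycn* and 10 between *Ppargc1a* and *Ppargc1b*, and no window of 50 bases was shared by any pair. The *Prkaa1* and *Prkaa2* stretch is shown because AMPKα1 and AMPKα2 have the most alike sequences. It lies at chr15:5143902-5160609 (forward strand, coding bases 34 to 134) and at chr4:105075549-105109798 (reverse strand, coding bases 1 to 101), in both from exon 1 to exon 2 across an intron. Capitals mark the identical run.

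Prkaa1: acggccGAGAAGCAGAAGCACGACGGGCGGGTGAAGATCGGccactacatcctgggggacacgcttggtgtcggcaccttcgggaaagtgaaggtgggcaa

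Prkaa2: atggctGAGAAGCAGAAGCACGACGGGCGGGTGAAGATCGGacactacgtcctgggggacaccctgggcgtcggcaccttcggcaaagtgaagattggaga

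Over these 101 bases the genes differed at 12 positions, 2 before and 10 after the run.

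Against astrocytes, SB28 cells had less RNA of 1 paralog and more of the other in the PGC-1, MYC and AMPKα pairs. *Ppargc1a*, *Mycn* and *Prkaa2* were lower and their partners *Ppargc1b*, *Myc* and *Prkaa1* higher, *Nrf1* was higher and *Stk11* lower. In mKate2- cells, 4 of the 10 genes were called higher and 4 lower, where 29.3% of the 13356 genes tested were called higher and 33.8% lower at an adjusted p below 0.05 (edgeR's quasi-likelihood test). In mKate2+ cells the counts were also 4 and 4, where 28% of 13342 genes were higher and 32.1% lower. With an absolute log2 fold change above 1, 2 were higher and 3 lower in each population, where 11.5% and 22.4% of genes passed in mKate2- cells and 12.2% and 22.8% in mKate2+ cells. *Ppargc1a* and *Mycn*, both among the lower genes, exceeded 1 CPM, the filter for a test, in astrocyte libraries alone. For them lower was the only call possible. The median log2 fold change of the 10 genes was 0.21 in mKate2- and 0.33 in mKate2+ cells, beside -0.04 and -0.02 over all genes tested. Both comparisons used the same astrocyte libraries, so they are not independent of each other. In sorted bulk samples, fewer cells of a type and less RNA per cell cannot be told apart.

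**Figure D1:**
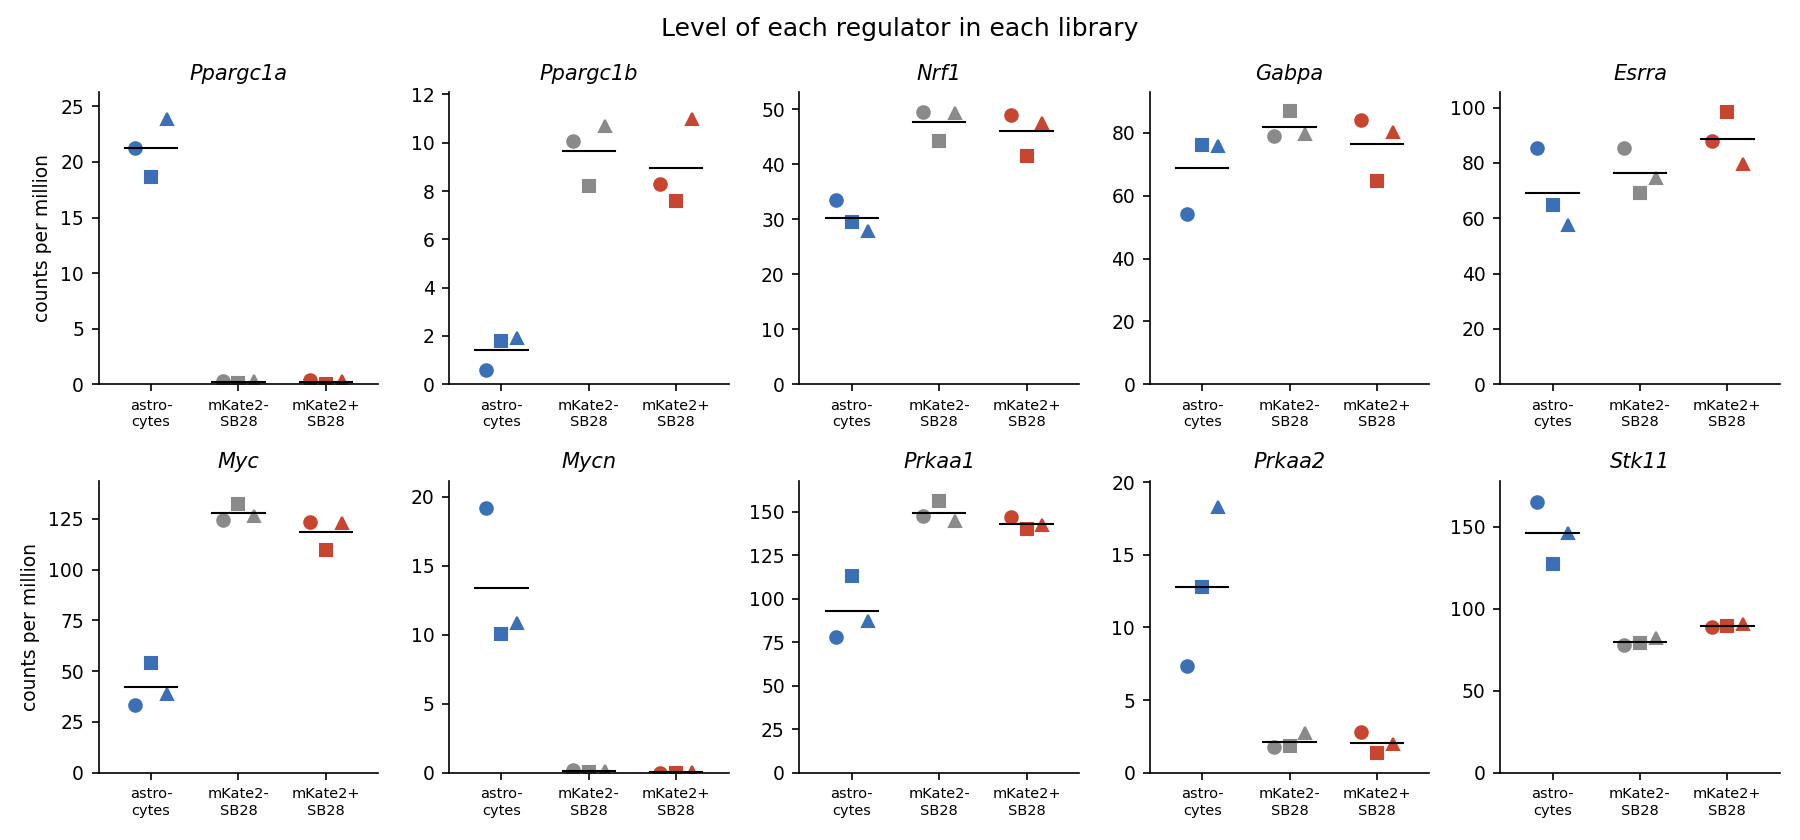
Level of each regulator (y axis, CPM, linear from 0) in astrocytes, mKate2- SB28 cells and mKate2+ SB28 cells. Each symbol is 1 library (circle, square and triangle for replicates 1, 2 and 3) and each line a mean of 3. *Ppargc1a* and *Mycn* lie near 0 in all 6 SB28 libraries, and *Stk11* is the gene whose mKate2+ values all lie above the mKate2- values, at 88.8 to 90.7 against 78.2 to 82.4.

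Among the coactivators, *Ppargc1a* (ENSMUSG00000029167, chr5:51454250-51567726, reverse strand), which encodes the PGC-1α best known from mitochondria-rich tissues, measured 21.3, 18.7 and 23.9 CPM (counts scaled to a common library total) in astrocytes. It measured 0.257, 0.111 and 0.335 CPM in mKate2- cells and 0.416, 0 and 0.293 CPM in mKate2+ cells. The SB28 values rest on 21 and 25 counts summed over 3 libraries, against 1969 in astrocytes. Astrocytes had 94.4 times the level of mKate2- cells (95% exact interval 61.6 to 153) and 93.5 times that of mKate2+ cells (63.1 to 145), where the intervals cover counting error only. Every SB28 library lay below every astrocyte library (edgeR, adjusted p = 8.8e-06 and 0.00023), the SB28 populations overlapped each other, and the library at 0 counts allows up to 3 counts. Because *Ppargc1a* passed the filter of 1 CPM only through the astrocyte libraries, lower was the only call possible.

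*Ppargc1b* (ENSMUSG00000033871, on chromosome 18), for the related PGC-1β, ran the other way. Astrocytes had 0.572, 1.80 and 1.94 CPM, mKate2- cells 10.1, 8.22 and 10.7 CPM, and mKate2+ cells 8.29, 7.59 and 11.002 CPM. Each SB28 library was above each astrocyte library, by 6.74-fold in mKate2- cells (log2 fold change 2.75 ± 0.42 SE, adjusted p = 0.00081) and 6.50-fold in mKate2+ cells (2.70 ± 0.44, adjusted p = 0.0014). Astrocyte replicate 1, with 14 counts, was the lowest.

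*Nrf1* (ENSMUSG00000058440, chr6:30047988-30153458), which encodes nuclear respiratory factor 1, measured 33.5, 29.5 and 27.9 CPM in astrocytes. It measured 49.5, 44.2 and 49.3 CPM in mKate2- cells and 49.0, 41.4 and 47.5 CPM in mKate2+ cells, with every SB28 library above every astrocyte library. The log2 fold change was 0.67 ± 0.13 (SE) in mKate2- cells (adjusted p = 0.0027) and 0.67 ± 0.14 in mKate2+ cells (adjusted p = 0.0038).

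*Gabpa* (ENSMUSG00000008976, chr16:84834925-84863779) encodes the DNA-binding subunit of GABP, also called NRF2. It measured 54.2, 76.2 and 75.7 CPM in astrocytes, 79.0, 87.0 and 79.5 CPM in mKate2- cells, and 84.2, 64.7 and 80.3 CPM in mKate2+ cells. The mKate2- values lay above the astrocyte values and the mKate2+ values overlapped them through replicate 2 alone, and neither difference passed the test. The log2 fold change was 0.27 (95% interval -0.05 to 0.59, adjusted p = 0.12) in mKate2- cells and 0.23 (-0.14 to 0.59, adjusted p = 0.24) in mKate2+ cells. *Gabpa* shares 397 exonic bases with *Atp5j* on the opposite strand, and whether the counting used strand is not stated.

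*Esrra* (ENSMUSG00000024955, chr19:6910977-6921813) encodes the nuclear receptor ERRα. It measured 85.3, 64.9 and 57.5 CPM in astrocytes, 85.5, 69.0 and 74.7 CPM in mKate2- cells, and 88.1, 98.5 and 79.6 CPM in mKate2+ cells, and the groups overlapped. The log2 fold change against astrocytes was 0.15 (95% interval -0.25 to 0.56, adjusted p = 0.47) in mKate2- cells and 0.44 (-0.0011 to 0.87, adjusted p = 0.078) in mKate2+ cells. Without astrocyte replicate 1, the highest of its group, both passed the threshold (log2 fold change 0.34, adjusted p = 0.042, and 0.62, adjusted p = 0.014). *Esrra* shares 73 exonic bases with *Trmt112* on the opposite strand.

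*Myc* (ENSMUSG00000022346, chr15:61985391-61990374), the growth-promoting transcription factor, measured 33.4, 54.0 and 38.9 CPM in astrocytes. It measured 125, 132 and 127 CPM in mKate2- cells and 123, 109.8 and 123 CPM in mKate2+ cells. The SB28 libraries were all above the astrocytes, by 3.07-fold in mKate2- cells (log2 fold change 1.62 ± 0.17 SE, adjusted p = 0.00013) and 2.97-fold in mKate2+ cells (1.57 ± 0.18, adjusted p = 0.00026). *Mycn* (ENSMUSG00000037169, chr12:12936093-12941914), its paralog of neural progenitors, measured 19.2, 10.1 and 10.8 CPM in astrocytes. It measured 0.184, 0.0279 and 0.134 CPM in mKate2- cells (10 counts in all) and 0, 0 and 0.0585 CPM in mKate2+ cells (2 counts in all). Astrocytes had 119 times the level of mKate2- cells (95% exact interval 64.4 to 249, adjusted p = 4.4e-05). For mKate2+ cells the ratio was 701 with a counting interval of 194 to 5792, which overlaps that of mKate2- cells. Like *Ppargc1a*, *Mycn* passed the filter only through the astrocyte libraries, so that lower was the only call possible.

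*Prkaa1* (ENSMUSG00000050697, chr15:5143861-5181899), for the broadly expressed AMPKα1, measured 77.8, 113 and 87.2 CPM in astrocytes. It measured 147, 156 and 145 CPM in mKate2- cells and 147, 139.9 and 142 CPM in mKate2+ cells, above the astrocytes in every library. The log2 fold change was 0.71 ± 0.14 (SE) in mKate2- cells (adjusted p = 0.0031) and 0.70 ± 0.15 in mKate2+ cells (adjusted p = 0.0049). *Prkaa2* (ENSMUSG00000028518, chr4:105029874-105109890), for the second catalytic form AMPKα2, measured 7.32, 12.8 and 18.3 CPM in astrocytes. It measured 1.80, 1.87 and 2.75 CPM in mKate2- cells and 2.77, 1.35 and 1.99 CPM in mKate2+ cells, below every astrocyte library. The decrease was 5.89-fold in mKate2- cells (log2 fold change -2.56 ± 0.36, adjusted p = 0.00057) and 5.98-fold in mKate2+ cells (-2.58 ± 0.40, adjusted p = 0.0011).

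*Stk11* (ENSMUSG00000003068, chr10:80115803-80130682), the gene for the AMPK-activating kinase LKB1, was lower in tumor cells. Astrocytes had 165, 127 and 146 CPM, mKate2- cells 78.2, 79.0 and 82.4 CPM, and mKate2+ cells 88.8, 89.8 and 90.7 CPM. The 3 groups did not overlap, with astrocytes highest and mKate2- cells lowest. The log2 fold change against astrocytes was -0.86 ± 0.13 (SE) in mKate2- cells (adjusted p = 0.00069) and -0.63 ± 0.13 in mKate2+ cells (adjusted p = 0.0049). *Stk11* shares 232 exonic bases with *Cbarp* on the opposite strand.

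**Figure D2:**
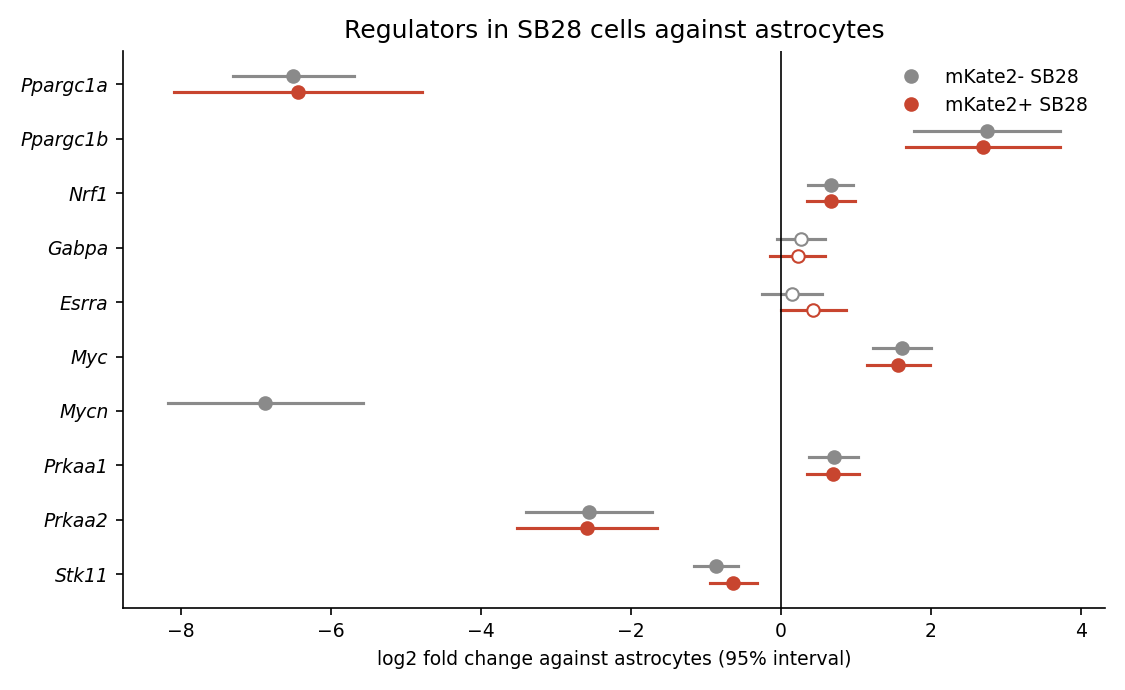
Log2 fold change of each regulator (x axis) in mKate2- (gray) and mKate2+ (red) SB28 cells against astrocytes, with 95% intervals from edgeR over 3 libraries against 3. Filled points passed an adjusted p of 0.05 and open points did not. The value of *Mycn* in mKate2+ cells rests on 2 counts and is not drawn. Both populations lie on the same side of 0 for each of the other 9 genes.

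Without mKate2+ replicate 2, the same 8 genes passed the test against astrocytes and *Gabpa* and *Esrra* did not. The log2 fold change was then -5.84 for *Ppargc1a*, against -6.44 with all libraries and -7.13 without mKate2+ replicate 1, 2.79 for *Ppargc1b*, 0.72 for *Nrf1*, 1.60 for *Myc*, 0.69 for *Prkaa1*, -2.37 for *Prkaa2* and -0.66 for *Stk11*. It was 0.31 for *Gabpa* (adjusted p = 0.15) and 0.32 for *Esrra* (adjusted p = 0.22). For *Mycn* the adjusted p was 0.00048, and no fitted fold change is given because both of its counts in mKate2+ cells came from replicate 3. Over all genes tested, the CPM ranges of mKate2- cells and astrocytes did not overlap for 71.1%, and those of mKate2+ cells and astrocytes for 67.1%. Among the 10 regulators this held for 9 and 8 genes, and for *Gabpa* it held in mKate2- cells alone. The overlap of *Gabpa* in mKate2+ cells rests on replicate 2 (64.7 CPM). Replicates 1 and 3 (84.2 and 80.3 CPM) lay above every astrocyte library.

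Levels of different genes were set side by side as RPKM, which divides CPM by the length of a gene's merged exons. In astrocytes, *Stk11* had the highest level of the set (32.0 ± 4.14 RPKM, SD, n = 3), followed by *Prkaa1* (19.9 ± 3.93), and *Ppargc1b* the lowest (0.3602 ± 0.188). In mKate2- cells, *Myc* came first (47.0 ± 1.44 RPKM), then *Prkaa1* (32.1 ± 1.26), and the same genes led in mKate2+ cells (43.7 ± 2.84 and 30.7 ± 0.769 RPKM). *Stk11* (17.4 ± 0.493 RPKM) and *Esrra* (17.4 ± 1.91) did not differ beyond their spread in mKate2- cells. *Ppargc1a*, *Mycn* and *Prkaa2* were the 3 lowest in both SB28 populations.

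The share of each paralog in its family followed from these levels. *Ppargc1a* made up 95.7%, 86.2% and 88.2% of the summed RPKM of the PGC-1α and PGC-1β genes in astrocytes, 1.52%, 0.814% and 1.86% in mKate2- cells, and 2.95%, 0% and 1.58% in mKate2+ cells. The sum of both genes was 3.59 ± 0.450 RPKM (SD, n = 3) in astrocytes, 2.46 ± 0.340 in mKate2- cells and 2.28 ± 0.466 in mKate2+ cells. Without mKate2+ replicate 2, which had no *Ppargc1a* counts, the mean share in mKate2+ cells was 2.27% in place of 1.51%, and the mean sum 2.47 RPKM. *Myc* made up 67.9%, 86.6% and 81.3% of the *Myc* and *Mycn* level in astrocytes and 99.9% to 100% in the SB28 libraries. Their sum was 19.6 ± 2.93 RPKM in astrocytes, 47.1 ± 1.42 in mKate2- cells and 43.7 ± 2.85 in mKate2+ cells, with no overlap between astrocytes and SB28 libraries.

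*Prkaa1* held 94.8%, 93.8% and 89.1% of the AMPKα level in astrocytes and reached 98.9% to 99.4% in the SB28 libraries, where the sum was 32.4 ± 1.22 RPKM (mKate2-) and 31.0 ± 0.858 RPKM (mKate2+) against 21.5 ± 4.16 in astrocytes. Of the regulatory subunits, *Prkag1* held 89.7% ± 0.864 (SD, n = 3) of the γ subunit level in astrocytes, 84.3% ± 2.79 in mKate2- cells and 84.4% ± 1.23 in mKate2+ cells. *Prkab1* held 83.4% ± 3.81, 84.9% ± 2.41 and 88.4% ± 1.89 of the β subunit level, with overlapping groups. The overlap of mKate2+ cells with the others rests on replicate 2 (86.4%), since replicates 1 and 3 (90.2% and 88.7%) lay above every astrocyte and mKate2- library, and their mean was 89.4%. The shares of *Ppargc1a*, *Myc*, *Prkaa1* and *Prkag1* did not overlap between astrocytes and either SB28 population, which gave the smallest p that 3 libraries against 3 allow in a two-sided exact permutation test (p = 0.1, adjusted p = 0.19 over 15 tests). This test thus cannot bring a share past 0.05 with these group sizes.

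**Figure D3:**
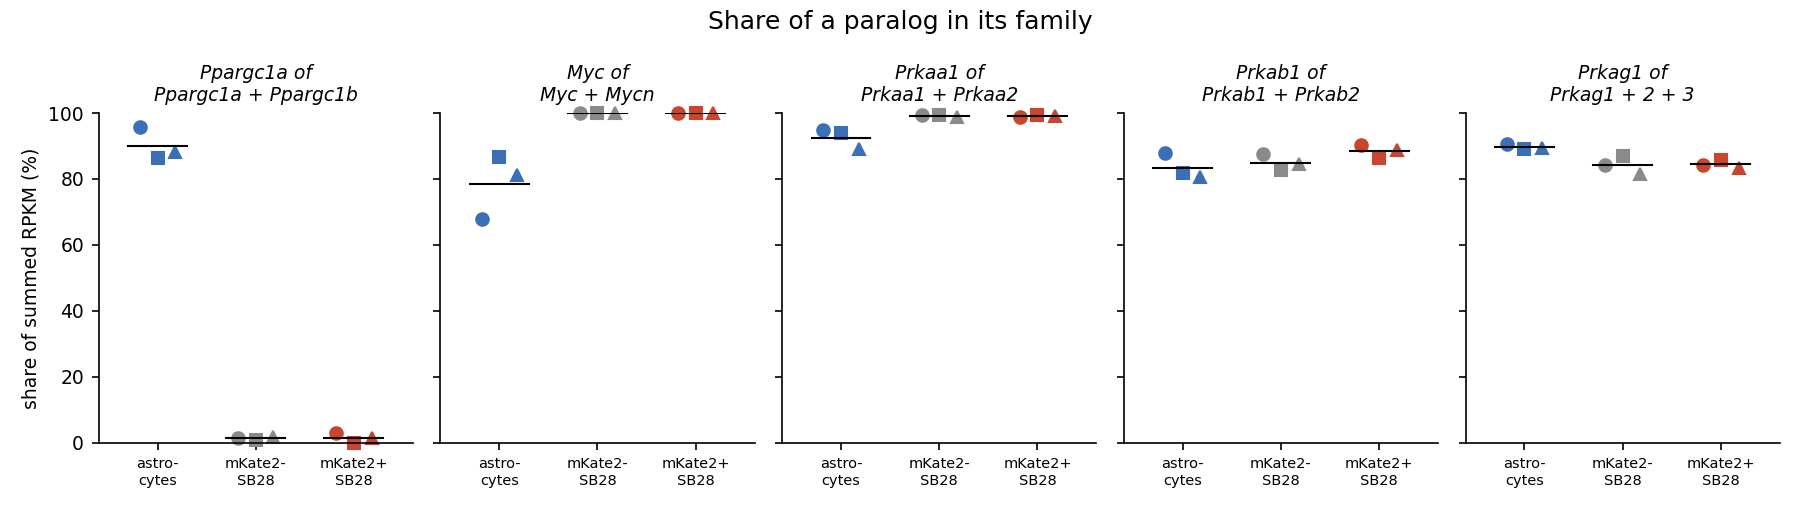
Share of 1 paralog in the summed RPKM of its family (y axis, percent) per library in astrocytes, mKate2- and mKate2+ SB28 cells, with lines at the mean of 3. Symbols mark replicates 1 (circle), 2 (square) and 3 (triangle). The *Ppargc1a* share falls from 90.1% in astrocytes to 1.40% and 1.51% in the SB28 populations, and the *Prkag1* share from 89.7% to 84.3% and 84.4%.

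Markers of other cells were measured beside these results. Of the 15 astrocyte markers, 14 were above 1 CPM in astrocytes, with *Mlc1* the most abundant and *Gfap* at 10.6 ± 8.15 CPM (SD, n = 3). Their summed level was 1469, 1436 and 2314 CPM in the astrocyte libraries, 525 to 574 CPM in mKate2- and 524 to 559 CPM in mKate2+ libraries, where *Gja1* and *Clu* made up most of it. The median marker stood at 1.84% of its astrocyte level in mKate2- cells and at 1.41% in mKate2+ cells, beside 1.10% and 1.11% for *Ppargc1a* and 0.861% and 0.146% for *Mycn*. The part of residual astrocyte RNA in the low *Ppargc1a* and *Mycn* values was not tested.

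The astrocyte libraries also held RNA of some oligodendrocyte lineage markers, with 4 of 9 above 1 CPM. The 9 markers summed to 847, 444 and 508 CPM in astrocyte replicates 1, 2 and 3, led by *Olig1*, whereas *Mog*, *Mag* and *Sox10* were at or near 0. Of the regulators, *Mycn*, *Stk11*, *Esrra* and *Nrf1* were highest in replicate 1 and *Gabpa*, *Myc* and *Prkaa1* in replicate 2. *Ppargc1a*, *Ppargc1b* and *Prkaa2* were highest in replicate 3. In the SB28 libraries the 9 markers summed to 17.1 to 27.1 CPM. Neuron markers summed to 14.8, 48.1 and 43.7 CPM in astrocytes, most of it *Stmn2*, with *Rbfox3* at 0, and to 1.49 to 2.91 CPM in SB28 cells. Microglia markers summed to 29.1 to 40.8 CPM in astrocytes and 47.6 to 61.3 CPM in SB28 cells, almost all of it *Tmem119*, with *Cx3cr1* at 0 in all 6 SB28 libraries. Endothelial and mural markers summed to 59.4 to 70.2 CPM and 43.0 to 61.4 CPM, mostly *Pdgfrb*. Whether cells of these types were present, and their part in the difference from astrocytes, was not tested.

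Between the SB28 populations, mKate2+ against mKate2- cells, no regulator passed the adjusted threshold. *Ppargc1a* and *Mycn* were too low to be tested, and 0 of the other 8 were called at an adjusted p below 0.05, as were 0% of the 11854 genes tested (edgeR, and 0 with DESeq2). Criteria of fold above 1.5 in either direction, unadjusted p below 0.05 and mean normalized count above 50 were also applied. Of the 8 genes, 0 passed these criteria, where 0.363% of genes did. At an unadjusted p below 0.05 alone, 1 of the 8 passed, *Stk11*, where 2.03% of genes did, or 241 genes. The median log2 fold change of the 8 genes was -0.02, and 0.02 without mKate2+ replicate 2, beside 0.0033 and -0.0036 over all genes tested.

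*Stk11* was 1.16-fold higher in mKate2+ cells (log2 fold change 0.22 ± 0.08 SE, 95% interval 0.04 to 0.40), with all 3 libraries above all 3 mKate2- libraries. Its unadjusted p was 0.020 and its adjusted p 0.92 in edgeR, so it did not pass. Without mKate2+ replicate 2 the log2 fold change was 0.17, with an unadjusted p of 0.025. *Esrra* had a log2 fold change of 0.27 (95% interval -0.03 to 0.58, adjusted p = 0.92), which fell to 0.14 without that library, the highest of the 9 at 98.5 CPM.

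The remaining 6 genes had point estimates between -0.06 and -0.0050 on the log2 scale. The 95% interval of the log2 fold change was -0.18 to 0.16 for *Prkaa1*, -0.22 to 0.10 for *Myc*, -0.20 to 0.19 for *Nrf1* and -0.27 to 0.16 for *Gabpa*. It was wider for the less abundant *Ppargc1b* (-0.45 to 0.33) and *Prkaa2* (-0.73 to 0.67). A change of 1.5-fold in either direction lies outside the intervals of the first 4 genes and of *Ppargc1b*, and inside that of *Prkaa2*. In *Myc*, all 3 mKate2+ libraries lay below all 3 mKate2- libraries (log2 fold change -0.06, adjusted p = 0.93). Such non-overlap in either direction was seen for 2 of the 8 genes and for 8.83% of all genes tested.

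**Figure D4:**
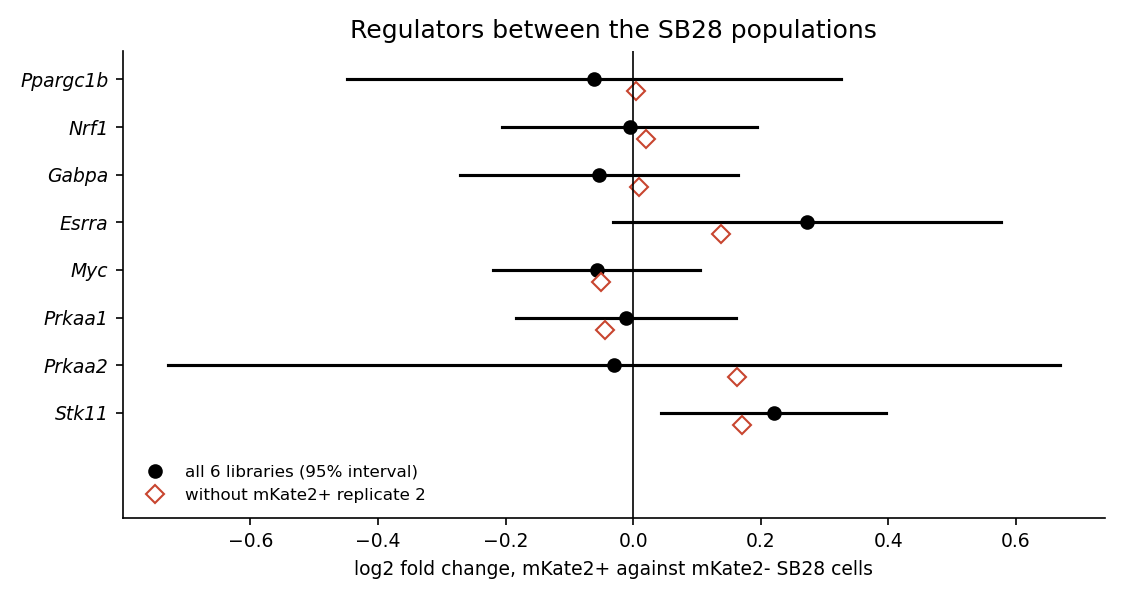
Log2 fold change of the 8 regulators tested (x axis) in mKate2+ against mKate2- SB28 cells. Black points and lines give the estimate and 95% interval from 3 libraries against 3, and open diamonds the estimate without mKate2+ replicate 2. The interval of *Stk11*, 0.04 to 0.40, is the only one that does not cross 0.

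The gene lists that follow are read against the same shares of all genes tested, 29.3% higher and 33.8% lower in mKate2- cells and 28% and 32.1% in mKate2+ cells. The wider PGC-1 network was followed through 19 other coactivators, partners and receptors, of which 17 were tested against astrocytes. In each SB28 population 9 were higher, 3 lower and 5 not called, with a median log2 fold change of 0.48 in mKate2- and 0.43 in mKate2+ cells. The share higher was thus above that of all genes and the share lower below it, with no test of the difference. *Pprc1*, the third PGC-1 family member, measured 41.4, 48.4 and 56.0 CPM in astrocytes, 132, 115 and 162 CPM in mKate2- cells and 149, 80.8 and 163 CPM in mKate2+ cells, where replicate 2 was the lowest. It rose 2.83-fold in mKate2- and 2.82-fold in mKate2+ cells (adjusted p = 0.00013 and 0.0014). On the log2 scale, *Gabpb2*, a partner subunit of GABPα, rose by 1.87 and 1.71, and *Kat2a*, an acetyltransferase that acts on PGC-1α, by 1.09 and 1.13 (adjusted p at most 0.00064). Rises and falls of genes given below with no unit are on the log2 scale as well.

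*Esrrg*, for ERRγ, a relative of ERRα, measured 11.6, 12.5 and 7.09 CPM in astrocytes and 0.0293 to 0.306 CPM in SB28 libraries (log2 fold change -5.57 and -6.45, adjusted p = 3.2e-05 and 0.00015). Its values in SB28 cells rest on few counts, and without mKate2+ replicate 1 the second was -7.77. *Perm1*, induced by PGC-1 and ERR in muscle, fell by 1.74 and 1.80, and *Tfeb*, a regulator of lysosome and mitochondrial genes, by 0.79 and 0.73 (adjusted p at most 0.021). *Esrrg* passed the filter of 1 CPM only through the astrocyte libraries, and *Perm1* only through astrocyte replicates 1 and 2 (2.00 and 2.35 CPM). For both genes lower was the only call possible. Without astrocyte replicate 1 or 2, *Perm1* was not tested.

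Of 20 genes known as targets of NRF1 and GABP, 8 were higher, 1 lower and 11 not called in each SB28 population, and the median log2 fold change was 0.32 in mKate2- and 0.46 in mKate2+ cells. Among all genes, 29.3% and 28% were higher and 33.8% and 32.1% lower, and no test of the difference was made. Without astrocyte replicate 3, the median log2 fold change of the 20 targets was 0.20 in mKate2- and 0.33 in mKate2+ cells. *Tomm70a*, an import receptor of the outer membrane, rose by 1.32 in both (adjusted p = 4.2e-05 and 0.00023). *Cycs*, for cytochrome c, rose by 1.17 and 1.53, with its highest value, 236 CPM, in mKate2+ replicate 2, and *Twnk*, for the helicase of mitochondrial DNA, by 0.76 and 0.77 (adjusted p at most 0.0020). *Alas1*, which starts heme synthesis, fell by 0.52 and 0.46 (adjusted p = 0.0093 and 0.032). *Tfam*, for the factor that packages and transcribes mitochondrial DNA, was named after its values were seen: it measured 23.1 to 27.2 CPM in astrocytes, 22.9 to 25.9 CPM in mKate2- and 20.5 to 24.02 CPM in mKate2+ cells, with a log2 fold change of -0.01 (95% interval -0.31 to 0.28) in mKate2- cells.

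The 13 mRNAs encoded by mitochondrial DNA itself took 1.76%, 2.91% and 3.13% of counts in astrocytes, 0.998%, 0.839% and 1.23% in mKate2- cells, and 1.37%, 0.552% and 1.51% in mKate2+ cells. Every SB28 library lay below every astrocyte library, and the SB28 populations overlapped, with mKate2+ replicate 2 the lowest of all. The overlap rests on that library, since mKate2+ replicates 1 and 3 lay above all 3 mKate2- libraries.

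Of the 5 regulatory subunits of AMPK, 4 were tested and 1 was called, higher, in each population, too few to set against the 29.3% and 28% of all genes. *Prkag2*, for γ2, measured 22.9, 21.2 and 22.8 CPM in astrocytes, 33.6, 29.0 and 40.8 CPM in mKate2- cells and 33.1, 26.5 and 35.8 CPM in mKate2+ cells (log2 fold change 0.64, adjusted p = 0.0071, and 0.58, adjusted p = 0.0097). *Prkab1* (β1), *Prkab2* (β2) and *Prkag1* (γ1) were not called, with log2 fold changes of 0.22, 0.06 and -0.08 in mKate2- cells and 0.30, -0.31 and -0.13 in mKate2+ cells. *Prkag3*, the γ3 of skeletal muscle, was at 0 in all SB28 libraries and at most 0.275 CPM in astrocytes.

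Of the partners of LKB1, *Strada* rose by 0.41 and 0.55 on the log2 scale (adjusted p = 0.017 and 0.0075) and *Stradb* fell by 0.71 and 0.69 (adjusted p = 0.0030 and 0.0035), both pseudokinases that activate it. Of the MO25 scaffolds, *Cab39l* rose by 0.48 and 0.47 (adjusted p = 0.015 and 0.031), whereas *Cab39* had -0.06 and -0.19 and was not called. That made 2 of 4 partners higher and 1 lower in each population, where 29.3% and 28% of all genes were higher and 33.8% and 32.1% lower.

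Of 10 other regulators of AMPK, 2 were higher and 4 lower in mKate2- cells and 1 higher and 4 lower in mKate2+ cells, near the 33.8% and 32.1% of all genes that were lower. The 3 sestrin genes, whose products respond to stress and nutrient loss, were all lower: *Sesn1* fell by 0.90 and 0.96, *Sesn2* by 0.67 and 0.65 and *Sesn3* by 1.51 and 1.53 (adjusted p at most 0.0068). *Fnip2*, for a folliculin partner, rose by 1.19 and 1.14 (adjusted p = 0.00045 and 0.0012). *Camkk1* was higher in mKate2- cells by 0.48 (adjusted p = 0.039) and had 0.45 in mKate2+ cells, which did not pass (adjusted p = 0.086), a difference between the populations of -0.04 (95% interval -0.33 to 0.25).

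Of the 13 AMPK-related kinases, which LKB1 also activates apart from *Melk*, 12 were tested, 1 was higher and 8 were lower in each population, with a median of -0.71 in mKate2- and -0.55 in mKate2+ cells. Among all genes, 33.8% and 32.1% were lower. *Melk*, a kinase of dividing cells, rose by 1.83 and 1.94. *Nuak1* fell by 2.12 and 2.14, *Snrk* by 2.28 and 2.39 (adjusted p at most 0.00019 for all 3). *Mark1*, which phosphorylates microtubule-associated proteins, measured 35.6, 22.0 and 42.4 CPM in astrocytes and 0.0255 to 0.536 CPM in SB28 libraries (adjusted p = 4.6e-05 and 0.00011). It is among the 8 lower genes but passed the filter only through the astrocyte libraries, so that lower was the only call possible.

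Of 13 AMPK substrates, 4 were higher and 4 lower in mKate2- cells, and 4 and 5 in mKate2+ cells, shares near those of all genes (29.3% higher and 33.8% lower, and 28% and 32.1%). The higher genes included *Acaca*, for the lipid synthesis enzyme acetyl-CoA carboxylase (log2 fold change 1.59 and 1.53), and *Rptor*, for the mTORC1 subunit (0.89 and 0.85, adjusted p at most 0.00073 for both). The lower genes included *Pfkfb3*, a glycolysis activator, which measured 26.9, 38.1 and 79.5 CPM in astrocytes and 3.67 to 5.46 CPM in SB28 libraries (-3.37 and -3.43, adjusted p = 0.00024 and 0.00033). *Foxo3*, a stress-responsive transcription factor, fell by 1.51 in both and *Mtfr1l* by 0.66 and 0.51 (adjusted p at most 0.0052).

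Of 15 factors of the MYC network, 14 were tested, with 6 higher and 4 lower in mKate2- cells and 5 and 4 in mKate2+ cells. Among all genes 29.3% and 28% were higher and 33.8% and 32.1% lower, so that the list's share lower was near the background. *Aurka*, a mitotic kinase that stabilizes MYC proteins, rose by 1.92 and 2.10, *Usp28*, a deubiquitinase of MYC, by 0.85 and 0.69, and *Mnt*, a repressor that also pairs with MAX, by 0.52 and 0.60 (adjusted p at most 0.0062). The MAX-binding repressors *Mxd1* and *Mxd4* fell by 1.80 and 1.92 (*Mxd1*) and 2.84-fold and 2.83-fold (*Mxd4*), and *Mycl*, the third MYC paralog, by 2.03 and 1.99 on the log2 scale (adjusted p at most 0.0015).

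Of the 24 MYC targets, 22 were higher, 1 lower and 1 not called in each population, with a median log2 fold change of 1.14 in mKate2- and 1.30 in mKate2+ cells, beside -0.04 and -0.02 over all genes, of which 29.3% and 28% were higher. *Shmt2*, of mitochondrial one-carbon metabolism, rose by 1.91 and 2.03, *Cad*, of pyrimidine synthesis, by 1.62 and 1.71, and *Pus7*, a pseudouridine synthase, by 1.66 and 1.62 (adjusted p at most 0.00013). *Ccnd2*, for cyclin D2, measured 712, 1119.8 and 2909.6 CPM in astrocytes and 478 to 575 CPM in SB28 libraries (log2 fold change -1.57 and -1.52, adjusted p = 0.017 and 0.023). Astrocyte replicate 3 was the highest by far, and without it the log2 fold change was -0.80 (adjusted p = 0.0049) and -0.76 (adjusted p = 0.014). The call was lost without mKate2- replicate 1 (adjusted p = 0.064) or 3 (0.059), and without any 1 of the mKate2+ libraries (adjusted p 0.058 to 0.068).

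**Figure D5:**
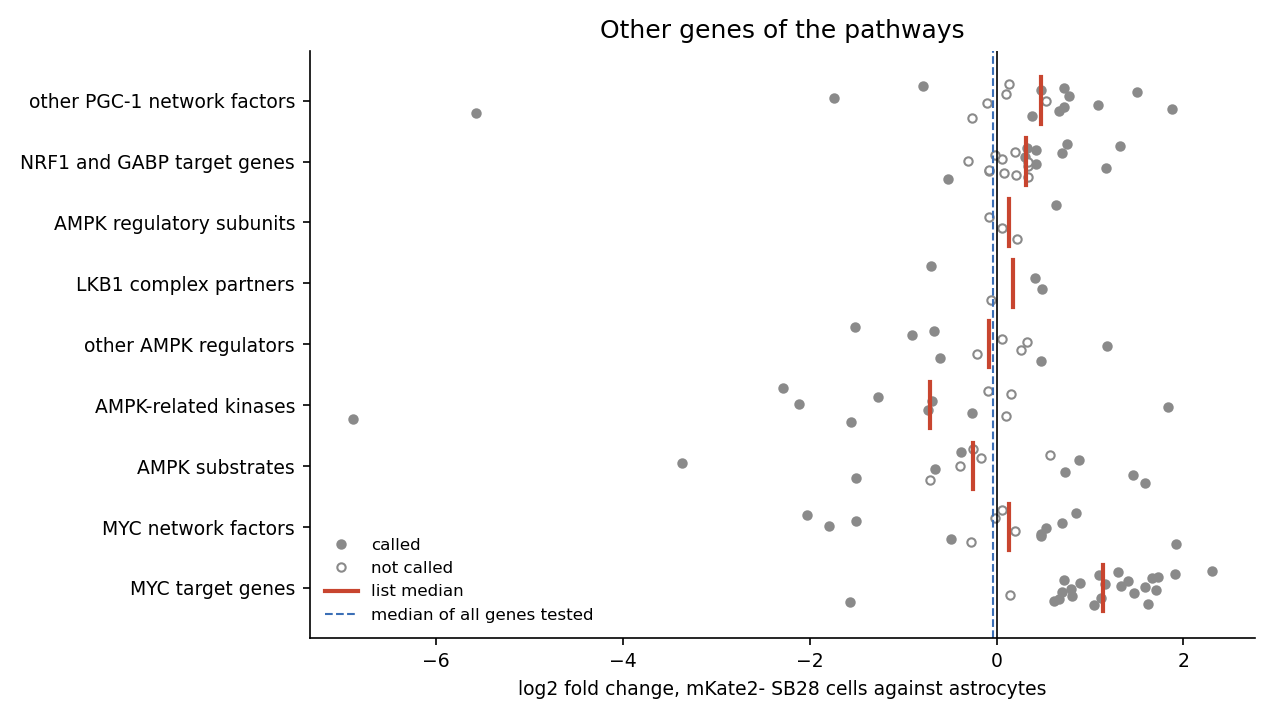
Log2 fold change in mKate2- SB28 cells against astrocytes (x axis) for each gene tested in 9 lists of the same pathways. Filled points passed an adjusted p of 0.05, open points did not, red bars are list medians and the dashed line is the median of all 13356 genes. The MYC targets have the highest list median, 1.14, and the AMPK-related kinases the lowest, -0.71.

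Each library was also left out in turn, an alternative chosen after the data were seen. Without mKate2+ replicate 2, where 26.1% of all genes were higher and 29.9% lower against astrocytes, the MYC targets had 22 higher and 0 lower (median log2 fold change 1.26). The PGC-1 network then had 9 and 3 (0.43), the NRF1 and GABP targets 6 and 0 (0.33), the AMPK subunits 2 and 0 (0.14) and the LKB1 partners 2 and 1 (0.23). The other AMPK regulators had 1 and 4 (-0.12), the AMPK-related kinases 1 and 7 (-0.59), the AMPK substrates 4 and 4 (-0.29) and the MYC network 5 and 4 (0.16). The count of higher NRF1 and GABP targets moved with the library left out. In mKate2- cells it was 4 without mKate2- replicate 1 or 3, 5 without astrocyte replicate 2 or 3, 6 without mKate2- replicate 2 and 9 without astrocyte replicate 1. The share of all genes called higher moved too, to 23.9% without mKate2- replicate 1 or 3, 26% and 31% without astrocyte replicates 2 and 3, 24.9% without mKate2- replicate 2 and 31.7% without astrocyte replicate 1. In mKate2+ cells it was 5 without mKate2+ replicate 1 or 3, 6 without astrocyte replicate 2 or 3 and 10 without astrocyte replicate 1. The share of all genes was then 23.3% and 22.5% without mKate2+ replicates 1 and 3, 23.6% and 26.4% without astrocyte replicates 2 and 3 and 27.7% without astrocyte replicate 1. The 6 higher MYC network factors of mKate2- cells became 4 without astrocyte replicate 2 and 3 without mKate2- replicate 1 or 3, where 26% and 23.9% of all genes were higher in place of 29.3%.

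Several calls of named genes were lost when 1 library was left out, all with the direction kept. In mKate2+ cells *Alas1* lost its call without astrocyte replicate 1 or 2 or mKate2+ replicate 2 or 3 (adjusted p 0.068 to 0.12), and *Tfeb* without astrocyte replicate 3 or mKate2+ replicate 1 or 3 (0.051 to 0.076). *Cab39l* lost it there without astrocyte replicate 1 or 2 or mKate2+ replicate 1 or 3 (adjusted p 0.064 to 0.11), and in mKate2- cells without mKate2- replicate 3 (0.061). *Strada* lost it in mKate2- cells without astrocyte replicate 2 or mKate2- replicate 1 or 3 (adjusted p 0.051 to 0.064). *Camkk1* lost it in mKate2- cells without any 1 library other than astrocyte replicate 1 (adjusted p 0.059 to 0.11), and gained it in mKate2+ cells without that library (0.040). *Prkab1* gained a call in mKate2- cells without astrocyte replicate 1 and in mKate2+ cells without mKate2+ replicate 2 (adjusted p = 0.048 in both).

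Between the SB28 populations, 0 genes of these lists were called. The smallest unadjusted p-values in edgeR among genes higher in mKate2+ cells were those of *Fbl*, a nucleolar methyltransferase (log2 fold change 0.32, unadjusted p of 0.014), *Stk11*, and *Aurka* (0.17, unadjusted p of 0.062). Among lower genes they were those of *Pfkfb2* (-0.48, unadjusted p of 0.027), *Ncor1*, a corepressor (-0.27, unadjusted p of 0.047), and *Prkab2* (-0.38, unadjusted p of 0.054). All 6 had an adjusted p of 0.92. *Ncor1* measured 181, 189 and 187 CPM in mKate2- cells and 166, 116 and 167 CPM in mKate2+ cells, with replicate 2 far below the others. *Prkab2* measured 9.05, 13.0 and 11.8 CPM against 7.49, 8.70 and 8.87 CPM.

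Some of the genes named share exonic bases with another gene, so their counts are less certain. On the same strand, *Pfkfb2* shares 1262 bases with *Gm29427*, and *Strada* 158 with *Ccdc47*. On the opposite strand, *Prkag1* shares 950 bases, *Prkag2* 795, *Mxd4* 514, *Alas1* 465, *Ccnd2* 372 and *Gabpb2* 328 with an antisense gene, *Twnk* 507 with *Mrpl43*, *Cab39l* 261 with *Cdadc1* and *Pprc1* 177 with *Ldb1*.

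Over the 9 libraries, each regulator was set beside the 2 genes whose log2 CPM followed it most closely (Pearson's r over 13450 genes, as a description). The 9 points share 2 cell types, so that any gene with a large difference between them scores high. *Ppargc1a* was nearest to *Ptprz1* (r = 0.998), a phosphatase of glial cells, and *Mycn* to *Slc38a9* (0.997). *Ppargc1b* was nearest to *Stk39* (0.997), *Nrf1* to *Polr3d* (0.997), *Myc* to *Macc1* (0.999), *Prkaa1* to *Phex* (0.995), *Prkaa2* to *Snx19* (0.994) and *Stk11* to *Lck* (0.993). The genes without a call had looser matches, *Map3k2* for *Gabpa* (0.975) and *Imp3* for *Esrra* (0.969), and the second match of *Esrra* was the mitochondrial ribosome gene *Mrpl11* (0.968).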

How the data were processed

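RNA was sequenced from 9 sorted libraries, 3 per group, which were assigned by their titles because the sort gates given for the CellTrace Violet stain differ between labels and methods. The authors trimmed reads with Trimmomatic 0.36, aligned them to GRCm38 with STAR 2.5.2b and deposited raw counts of unique gene hits from featureCounts (Subread 1.5.2). The annotation release and the strand setting are not given in the sources used here.

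Names came from GENCODE M21, which matched 49056 of 49315 gene IDs. A gene entered a comparison if 2 or more of its 6 libraries exceeded 1 CPM, and was tested in R 4.3.3 with edgeR 4.0.16 (TMM, quasi-likelihood test, Benjamini-Hochberg adjustment over all genes tested, calls below 0.05), after a check on simulated counts. Differences and intervals are on the log2 scale of that fit. CPM used total counts, and RPKM the merged exonic length. Intervals of count ratios cover counting error only. Paralog shares were compared by exact permutation. DESeq2 1.42.0, other scalings and filters, 1 fit of all libraries, a replicate block, removal of the gene length trend and leaving out each library were tried as alternatives.

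All members were named, with all AMPK regulatory subunits and LKB1 partners. From each other list, up to 3 genes per direction with the smallest adjusted p in mKate2- cells against astrocytes were named, and between the SB28 populations up to 3 per direction by unadjusted p. One gene that this rule names is not reported here. The members and lists were chosen with earlier results of these data known.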

Additional observations from a re-analysis of the deposited data

How the results depend on the processing

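Against astrocytes, the 8 called regulators kept their direction and call under every alternative in which they were tested. *Ppargc1a* and *Mycn* could not be tested with at least 10 counts in every library, which left 3 genes with an absolute log2 fold change above 1 in each population in place of 5, and 6 called in place of 8. *Esrra* in mKate2+ cells passed the threshold with no filter on low counts (log2 fold change 0.49, adjusted p = 0.049), with all 9 libraries in one fit (0.43, adjusted p = 0.049) and without astrocyte replicate 1. Between the SB28 populations, 0 regulators and 0 genes were called under any alternative. The 43 genes past the fold, p and count criteria became 83 with DESeq2, 259 with no filter and 81 with all 9 libraries, and 22 (without mKate2+ replicate 2) to 380 (without mKate2+ replicate 1) when 1 library was left out. The cause was not tested. Small differences between these populations changed sign in places. *Nrf1* had a log2 fold change of 0.0040 with no filter, 0.0090 with all 9 libraries and 0.087 with the length trend removed, *Prkaa1* 0.0021 with all 9 libraries, and *Prkaa2* 0.027 with the length trend removed. With 1 library left out, the range was -0.23 to 0.0090 for *Ppargc1b*, -0.054 to 0.028 for *Nrf1*, -0.11 to 0.0096 for *Gabpa*, -0.044 to 0.023 for *Prkaa1* and -0.29 to 0.18 for *Prkaa2*. The difference in share between the SB28 populations then ranged from -0.607 to 0.866 percentage points for *Ppargc1a*, -0.119 to 0.148 for *Prkaa1* and -1.26 to 1.54 for *Prkag1*. Of the 20 genes with the closest patterns, 4 were also found by Spearman's rho and 11 on total counts.

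The labels give the groups the same replicate numbers. Deviations of same-numbered mKate2- and mKate2+ libraries correlated at -0.0037, 0.136 and 0.170, and those of differently numbered ones at -0.178 to 0.082. Whether these values reflect pairing was not tested. The numbers were not taken as pairs in the main test, because whether a number marks 1 co-culture is not stated. With the replicate block, 8 regulators were still called against astrocytes in each population, among 8186 and 7478 genes in place of 8425 and 8013. Between the SB28 populations the block gave 0 calls, and *Stk11* had a log2 fold change of 0.22.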
